A study of Arabidopsis thaliana with 18 samples.

Results

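The peaks described here were those assigned to the AP2-like genes *AP2* (AT4G36920), *TOE1* (AT2G28550), *TOE2* (AT5G60120), *TOE3* (AT5G67180) and *SMZ* (AT3G54990), and to the microRNA gene *MIR172A* (AT2G28056). A peak was taken when the gene field of the deposited peak lists held the locus of one of these 6 genes. They were 12 of the 1503 peaks in 4 lists: 7 of 523 for SVP:GFP in WT, 1 of 246 for SVP:GFP in *flc-3*, 2 of 315 for FLC in WT and 2 of 419 for FLC in *svp-41*.

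The lists came from ChIP-seq of 2-week-old *A. thaliana* seedlings, all labelled with the ecotype Columbia-0 FRI, with 3 samples in each of 6 groups (18 samples). SVP:GFP was expressed from the *SVP* promoter in the *svp-41* mutant and was precipitated with anti-GFP (Ab290), either with functional *FLC* (pSVP:SVP:GFP svp-41 FLC FRI, here called WT) or without it (the same transgene in svp-41 flc-3 FRI plants, here called *flc-3*). FLC was precipitated with FLC antiserum from SVP FLC FRI plants (WT) and from svp-41 FLC FRI plants (*svp-41*). The GFP chromatin was compared with that of 35S:GFP plants, so both SVP:GFP lists share these controls, and the FLC chromatin with that of svp-41 flc-3 FRI plants, which both FLC lists share. The supplementary methods describe control samples that were combined into a single control for peak calling, in a number that differs from that of the labels, so which samples stand behind each fold-enrichment over the control is not settled. The WT of the SVP:GFP list therefore carries a transgene in a mutant background and is a different plant from the WT of the FLC list. The labels give long days for growth and the methods give short days, with above-ground tissue taken at the hour when the light period of such days ends. The above-ground tissue was not divided further, so the cells in which a site was occupied cannot be told apart.

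SVP and FLC are MADS-box transcription factors that repress flowering, interact with each other and bind CArG-boxes, short elements with an A/T-rich core between CC and GG. The AP2-like genes encode transcription factors of the APETALA2 family. *TOE1*, *TOE2*, *TOE3* and *SMZ* delay flowering, and *AP2* acts both as a floral repressor and in floral organ identity. All of them carry a site complementary to miR172, which lowers their activity as the plant matures, while miR156 acts earlier by limiting the SPL transcription factors that promote transcription of miR172 genes.

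The sequence that joins these genes is shown first, read from the TAIR10.1 genome with RefSeq annotation. The mature miR172a is encoded on the minus strand at chr2:11942918-11942938, and its seed, bases 2 to 8, is in capitals. Mature miR172a and miR172e-3p are given because they differ at the first base only, outside the seed. The same seed was present in the mature 3′ arms of miR172b, miR172c and miR172d.
miR172a: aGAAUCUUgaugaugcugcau
miR172e-3p: gGAAUCUUgaugaugcugcau

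The best complementary site of 21 bases in the spliced transcripts of each AP2-like gene lay in a coding exon. The sites are written as DNA on the strand of the gene, and capitals mark bases that form a Watson-Crick pair with miR172a.
*AP2*, chr4:17403019-17403039: cTGCAGCATCATCAgGATTCT
*TOE1*, chr2:12226233-12226253: caGCAGCATCATCAgGATTCT
*TOE2*, chr5:24210889-24210909: ATGCAGCATCATCAgGATTCT
*TOE3*, chr5:26802175-26802195: tgGCAGCATCATCAgGATTCT
*SMZ*, chr3:20373774-20373794: tTGCAGCATCATCAgGATTCc
*SNZ*, chr2:16389066-16389086: tTGtAGCATCATCAgGATTCc

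With miR172a, *TOE2* had the closest match, with 20 of 21 bases paired. *AP2* had 19, and *TOE1*, *TOE3* and *SMZ* had 18 each. *SNZ* (AT2G39250), the paralogue of *SMZ* that was assigned to no peak in any list, had 17. Every site shared 1 G:U pair at the same place, and *SNZ* had 2 such pairs. The mature miR172c, miR172d-3p and miR172e-3p each differ from miR172a at 1 base, and pairing with them was not counted.

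All 6 genes were assigned to at least 1 peak of SVP:GFP in WT, and they were far less complete in the other lists. *SMZ* alone was assigned to a peak of SVP:GFP in *flc-3*, *AP2* and *TOE3* to a peak of FLC in WT, and *TOE3* and *SMZ* to a peak of FLC in *svp-41*. *TOE3* and *SMZ* were thus each found in 3 lists, *AP2* in 2, and *TOE1*, *TOE2* and *MIR172A* only in that of SVP:GFP in WT. No gene of the 6 was found in all 4 lists. Of the 1112 annotated genes assigned to a peak of any list, 59.9% were in 1 list, 25.3% in 2, 10.2% in 3 and 4.68% in 4. Of the 37899 genes annotated on the 5 chromosomes, 2.00% were assigned to a peak of SVP:GFP in WT, 0.786% to one of SVP:GFP in *flc-3*, 0.884% to one of FLC in WT, 1.01% to one of FLC in *svp-41*, and 2.93% to a peak of any list. The 6 genes were chosen because they have peaks, so their count is a description and is not tested against these shares.

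Each list is a single result for its group of 3 samples, with 1 fold-enrichment and 1 P-value for a peak. Which of the samples stand behind these values is not stated. The values of single samples were not used here, so no spread between samples, depth or test of a difference between lists is given. The lists also end at different strengths: the lowest −log10(P) was 17.2 for SVP:GFP in WT, 11.4 for SVP:GFP in *flc-3*, 4.33 for FLC in WT and 9.24 for FLC in *svp-41*. When 17.2 was required of every list, no member peak was left for SVP:GFP in *flc-3* or FLC in WT, while those of *TOE3* and *SMZ* for FLC in *svp-41* were. When each list was reduced to its strongest 246 peaks, SVP:GFP in WT held 2 of the 6 genes, *TOE2* and *MIR172A*, SVP:GFP in *flc-3* and FLC in WT held 1 each, and FLC in *svp-41* held 2. At equal length the number of these genes therefore differed by at most 1 between lists, but the genes were not the same. SVP:GFP in *flc-3* held *SMZ*, FLC in WT held *TOE3*, and FLC in *svp-41* held *TOE3* and *SMZ*. The genes that SVP:GFP in WT held were in no other list. Strength is therefore given below as a rank within a list, where rank 1 is the peak with the highest −log10(P) and tied peaks share the best rank.

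**Figure D1:**
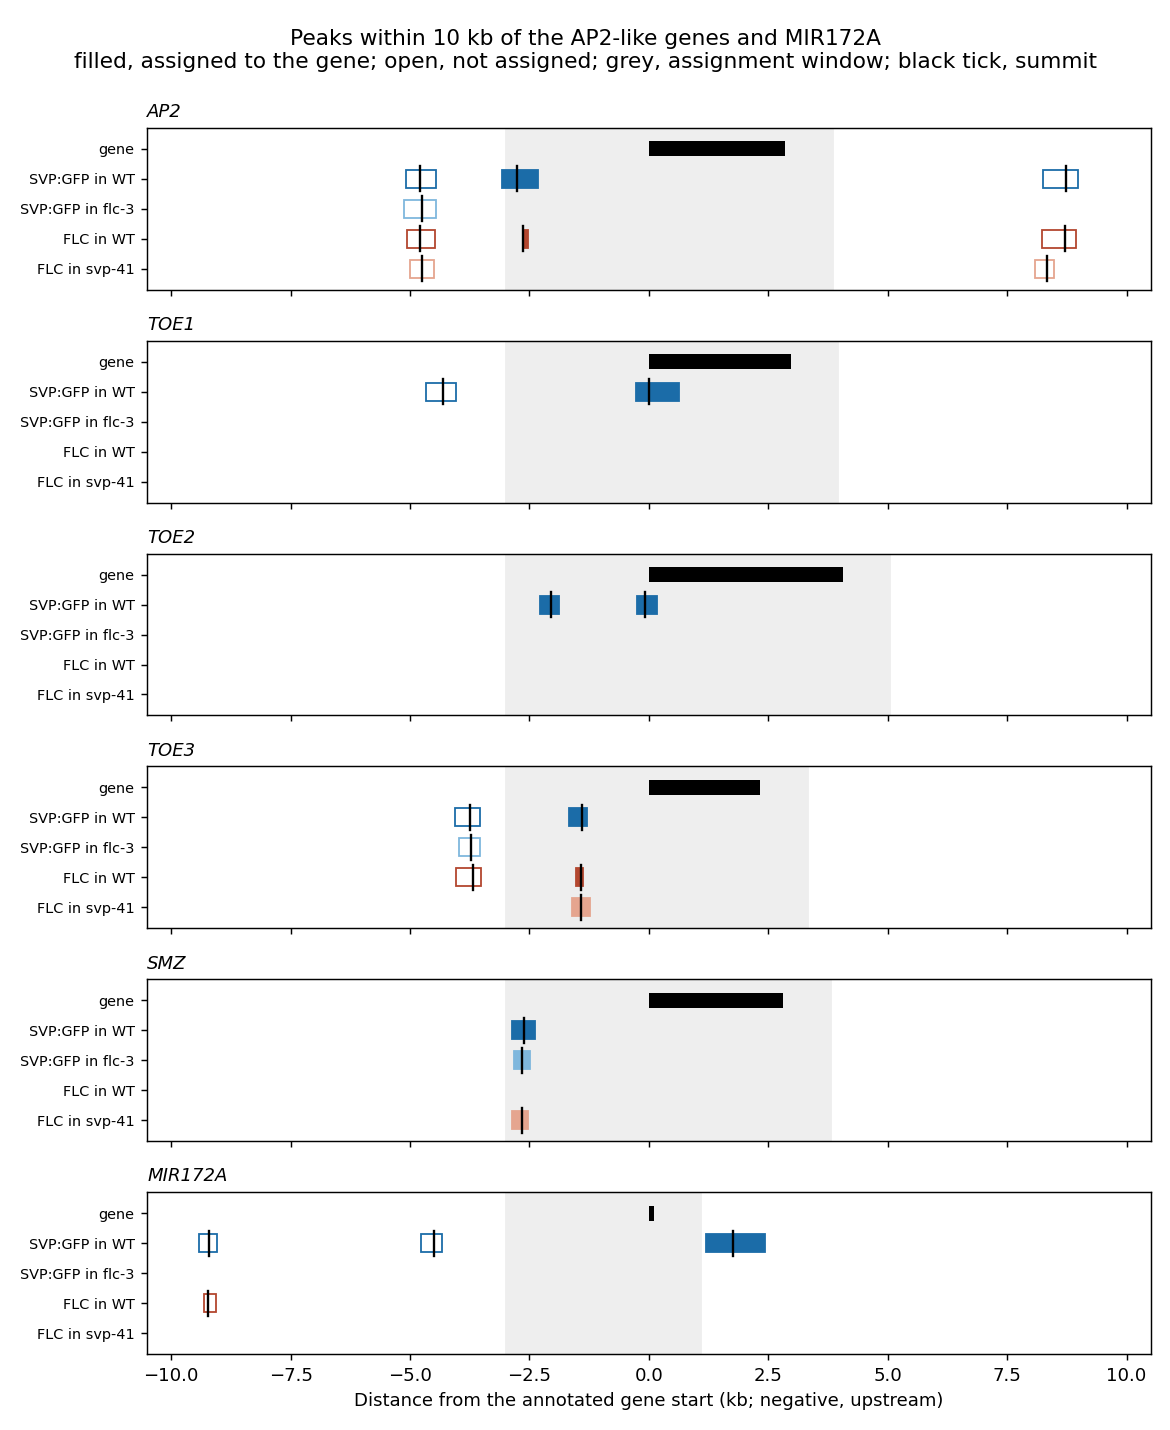
Peaks within 10 kb of the 6 genes, by distance of the peak from the annotated gene start in kb (negative values are upstream) and by list. Bars are peaks, black ticks are summits, filled bars are assigned to the gene, open bars are not, the black bar is the gene and grey marks 3 kb upstream to 1 kb downstream of it; the filled bars lie upstream or at the start of each gene except at *MIR172A*, where the filled bar lies past the gene and outside the grey area.

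*SMZ* (SCHLAFMÜTZE), a repressor of flowering, was the only member bound by SVP:GFP in both genotypes. The gene lies at chr3:20373718-20376522 on the minus strand. For SVP:GFP in WT, the peak at chr3:20378908-20379381 had a fold-enrichment of 3.74, a −log10(P) of 31.6 and rank 258 of 523. For SVP:GFP in *flc-3*, the peak at chr3:20379013-20379343 had a fold-enrichment of 3.50, a −log10(P) of 15.7 and rank 162 of 246. For FLC in *svp-41*, the peak at chr3:20379041-20379390 had a fold-enrichment of 3.37, a −log10(P) of 17.5 and rank 181 of 419. Counted from the strongest, the 3 peaks stood at 49.3%, 65.9% and 43.2% of their lists. No FLC peak was assigned in WT, and the nearest FLC summit there was 252460 bp away.

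The 3 summits at *SMZ* were 2610, 2660 and 2654 bp upstream of the gene start, in the same order. That of SVP:GFP in *flc-3* and that of FLC in *svp-41* were 6 bp apart, where the median over the 86 overlapping peak pairs of these lists was 14.5 bp. The summit of SVP:GFP in WT was 50 bp from the first and 44 bp from the second, both farther than the medians for these lists, 30 and 20 bp. The region lies between genes and was also assigned to *TON1A* (AT3G55000), which is transcribed in the other direction and acts in the organisation of cortical microtubules. The summits were 2278 to 2328 bp from the start of *TON1A*, closer than to *SMZ*, so the list of bound genes does not tell the pair apart.

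All 3 *SMZ* peaks contained the same CArG-box, here CC, 6 bases of A or T, then GG, which reads the same pattern on both strands. The box lay 36 bp from the summit of SVP:GFP in WT and 5 bp from that of SVP:GFP in *flc-3*, and it covered the summit of FLC in *svp-41*. The 300 bp around that last summit are shown on the strand of *SMZ*, with the box in capitals, because it is the only member region with a peak of each protein in plants lacking the other.
*SMZ*, chr3:20379027-20379326, minus strand: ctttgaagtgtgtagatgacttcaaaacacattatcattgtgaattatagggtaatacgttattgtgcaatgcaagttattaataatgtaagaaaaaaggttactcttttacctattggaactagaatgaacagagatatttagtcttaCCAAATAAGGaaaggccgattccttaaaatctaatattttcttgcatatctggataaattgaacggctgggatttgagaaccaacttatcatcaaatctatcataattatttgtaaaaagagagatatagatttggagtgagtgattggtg

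*TOE3*, a relative of *AP2*, was the only member bound by FLC in both genotypes. The gene lies at chr5:26801949-26804271 on the minus strand. For SVP:GFP in WT, the peak at chr5:26805561-26805943 had a fold-enrichment of 3.15, a −log10(P) of 21.7 and rank 420 of 523. For FLC in WT, the peak at chr5:26805656-26805791 had a fold-enrichment of 2.79, a −log10(P) of 7.20 and rank 235 of 315. For FLC in *svp-41*, the peak at chr5:26805500-26805874 had a fold-enrichment of 5.15, a −log10(P) of 27.0 and rank 108 of 419. The FLC peak was in the strongest 25.8% of its list in *svp-41* and at 74.6% of the list in WT, counted from the strongest. Whether the occupancy itself differed between the genotypes was not tested here.

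The *TOE3* summits were 1393 bp upstream of the gene start for SVP:GFP in WT, 1426 bp for FLC in WT and 1417 bp for FLC in *svp-41*. The FLC summits were 9 bp from each other, and 33 and 24 bp from that of SVP:GFP. The medians over all overlapping peak pairs of these lists were 18, 22.5 and 20 bp, in the same order. All 3 lay within the non-coding genes AT5G09825 and AT5G09835 of the RefSeq annotation, and no other gene was assigned.

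No *TOE3* peak held an exact CArG-box. Each held the same element with 1 mismatch to the box, present in 2 copies within a direct repeat. The repeat consists of 2 identical units of 29 bp side by side, and is shown on the strand of *TOE3* with the elements in capitals.
*TOE3*, chr5:26805669-26805726, minus strand: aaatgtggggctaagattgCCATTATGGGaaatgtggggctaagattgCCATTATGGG

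The summit of FLC in *svp-41* fell between the 2 elements, 10 bp from each. That of FLC in WT was 1 bp from one and 19 bp from the other, and that of SVP:GFP was 5 and 34 bp from them. Elements with up to 1 mismatch are common: 15.6% of genome windows as long as the FLC peak in WT (136 bp) and 38.8% of those as long as the SVP:GFP peak (383 bp) held one. The 300 bp around the summit of FLC in *svp-41*, with every such element in capitals, show a further one to the left, farther upstream.
*TOE3*, chr5:26805539-26805838, minus strand: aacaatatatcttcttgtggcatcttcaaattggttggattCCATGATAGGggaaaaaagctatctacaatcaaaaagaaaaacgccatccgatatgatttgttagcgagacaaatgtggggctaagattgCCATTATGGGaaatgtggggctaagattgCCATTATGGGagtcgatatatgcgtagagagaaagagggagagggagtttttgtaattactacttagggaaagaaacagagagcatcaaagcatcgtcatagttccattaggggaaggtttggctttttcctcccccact

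*AP2* was bound by both proteins in WT and was assigned to no peak in either mutant. The gene lies at chr4:17400610-17403469 on the plus strand. For SVP:GFP, the peak at chr4:17397535-17398282 had a fold-enrichment of 3.42, a −log10(P) of 25.9 and rank 336 of 523, and 8 peaks of the list shared this P-value. For FLC, the peak at chr4:17397968-17398074 had a fold-enrichment of 2.09, a −log10(P) of 4.40 and rank 313 of 315. The FLC peak was thus among the 3 weakest of its list and below the lowest −log10(P) of the FLC list in *svp-41*, so its absence there cannot be read as a loss.

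The *AP2* summits were 2750 bp upstream for SVP:GFP and 2625 bp for FLC. They were 125 bp apart, and 12 of the 146 overlapping peak pairs of these lists were at least as far apart, against a median of 22.5 bp. The FLC peak of 106 bp lay wholly within the SVP:GFP peak of 747 bp. Both held the same CArG-box, which contained the FLC summit and was 125 bp from the SVP:GFP summit. The 300 bp around the FLC summit are shown with the box in capitals, since the box lies in the overlap of both peaks.
*AP2*, chr4:17397836-17398135, plus strand: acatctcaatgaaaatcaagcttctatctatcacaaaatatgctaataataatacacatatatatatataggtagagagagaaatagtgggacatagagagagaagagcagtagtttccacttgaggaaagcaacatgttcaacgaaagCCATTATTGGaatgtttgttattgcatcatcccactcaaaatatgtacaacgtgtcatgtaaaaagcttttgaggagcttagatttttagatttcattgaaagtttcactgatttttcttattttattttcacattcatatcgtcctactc

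**Figure D2:**
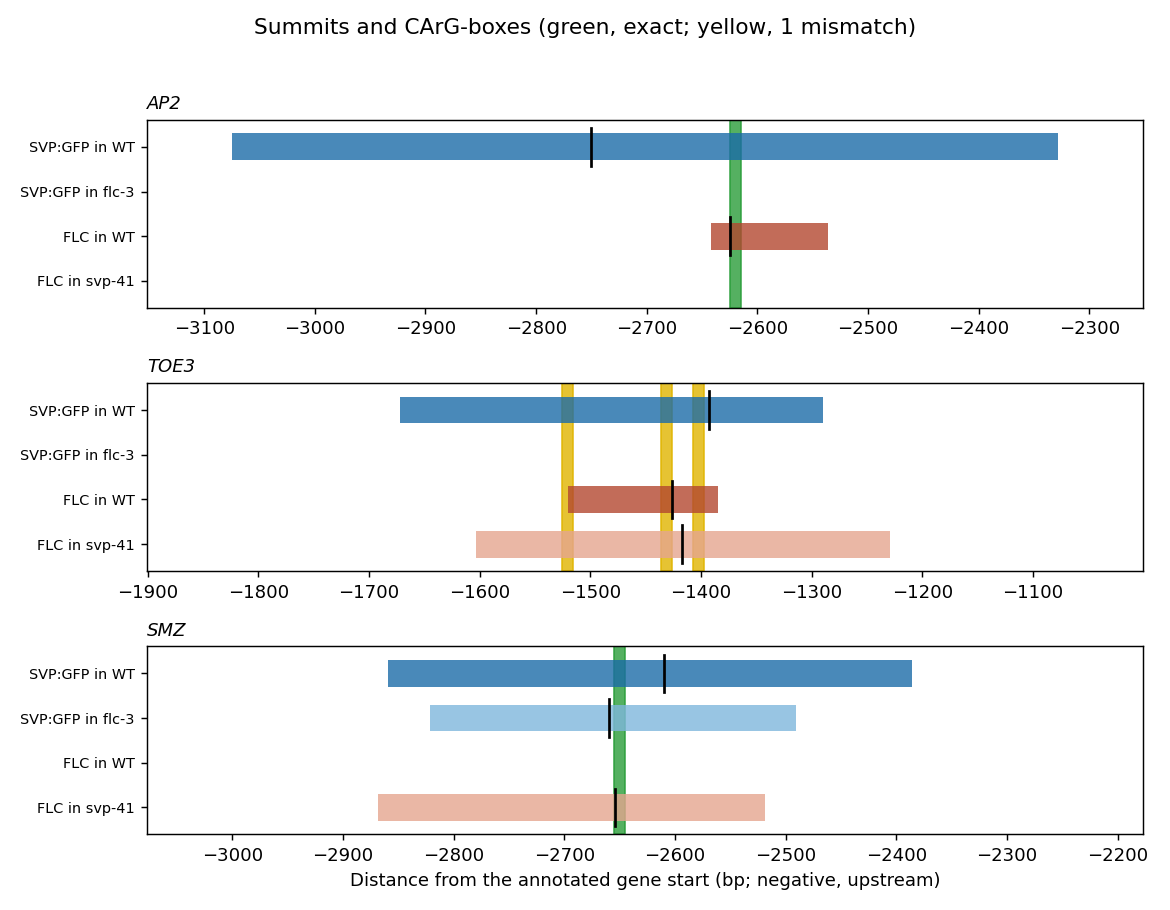
Summits (black ticks) and extents (bars) of the assigned peaks at *AP2*, *TOE3* and *SMZ*, by distance from the annotated gene start in bp (negative values are upstream), for each list. Green bands are exact CArG-boxes and yellow bands are elements with 1 mismatch; the FLC summits lie on the box at *AP2* and *SMZ*, and between or beside the repeated elements at *TOE3*, while the SVP:GFP summits in WT lie 125, 5 and 36 bp from the nearest one.

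*TOE2*, a floral repressor, had 2 peaks of SVP:GFP in WT and was assigned to none elsewhere. Of the 759 annotated genes assigned in that list, 55 (7.25%) had more than 1 peak. *TOE2* lies at chr5:24207689-24211743 on the plus strand. The distal peak at chr5:24205403-24205811 rose to a summit 2055 bp before the gene start, with a fold-enrichment of 5.37, a −log10(P) of 65.7 and rank 124 of 523. Its fold-enrichment and −log10(P) were the highest of the 12 peaks. Ranked by fold-enrichment within its list it stood at 22.2%, beside 22% for the *TOE3* peak of FLC in *svp-41*. The proximal peak at chr5:24207445-24207865 rose to a summit 72 bp before it, with a fold-enrichment of 3.06, a −log10(P) of 22.3 and rank 404 of 523. The nearest FLC summits were 27959 bp past the gene in WT and 27962 bp past it in *svp-41*, and the nearest summit of SVP:GFP in *flc-3* was 240501 bp away.

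Neither *TOE2* peak overlapped an FLC peak. Among the 124 peaks of SVP:GFP in WT at or above the rank of the distal peak, 38 (30.6%) overlapped a peak of FLC in WT, 37 (29.8%) one in *svp-41*, and 41 (33.1%) overlapped one in either genotype. The distal peak held no exact CArG-box and was the only 1 of the 12 with a G-box (CACGTG, the same on both strands), 91 bp from the summit. A G-box was present in 28.5% of all peaks of SVP:GFP in WT and in 4.42% of genome windows of the same length. The 300 bp around the distal summit are shown with the G-box in capitals, as the site with the highest fold-enrichment and −log10(P) of the set.
*TOE2*, chr5:24205485-24205784, plus strand: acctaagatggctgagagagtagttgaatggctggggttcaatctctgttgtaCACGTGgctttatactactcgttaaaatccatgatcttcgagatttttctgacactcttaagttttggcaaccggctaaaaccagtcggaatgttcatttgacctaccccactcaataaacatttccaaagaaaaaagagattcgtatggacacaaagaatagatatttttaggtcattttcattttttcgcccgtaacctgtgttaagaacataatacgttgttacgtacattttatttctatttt

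*TOE1* (named RAP2.7 in RefSeq), a floral repressor, had 1 peak, of SVP:GFP in WT, and it was the only one with a summit inside its gene. The gene lies at chr2:12225656-12228624 on the minus strand. The peak at chr2:12227992-12228892 had its summit 4 bp inside the 5′ UTR, a fold-enrichment of 3.22, a −log10(P) of 22.7 and rank 393 of 523. An exact CArG-box lay 37 bp from the summit, upstream of the transcript start. In the other lists, the nearest summits were 138494 to 138506 bp away. The box is shown in capitals between its flanking bases on the strand of the gene.
*TOE1*, chr2:12228647-12228676, minus strand: tataccactgCCAAAAAAGGaccaacaaca

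*MIR172A*, 1 of 5 genes for miR172, had 1 peak, of SVP:GFP in WT, and its assignment was the least certain of the set. The gene lies at chr2:11942914-11943015 on the minus strand. The peak at chr2:11940582-11941826, the widest of the 12 with 1244 bp, had a fold-enrichment of 4.13, a −log10(P) of 38.9 and rank 207 of 523. In the RefSeq annotation its summit was 1668 bp past the 3′ end of the gene, outside the 1 kb that the study allowed downstream. Of the 816 pairs of a peak and a gene in this list, this was the only one outside the window of 3 kb upstream to 1 kb downstream. The peak was also assigned to AT2G28050, whose start lies 1593 bp from the summit with the summit upstream, and the nearest annotated gene was the non-coding AT2G08215 at 50 bp. No exact CArG-box and no G-box was present in the peak.

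Relative to the whole list, the 7 peaks of SVP:GFP in WT spanned fold-enrichments of 3.06 to 5.37, with a median of 3.42 against 3.70 over all 523 peaks. Their median −log10(P) was 25.9 against 31.4, and 3 of 7 were above the list median by either value. Both member peaks of FLC in WT were below the medians of their list (fold-enrichment 3.28, −log10(P) 10.4). Of the 2 for FLC in *svp-41*, *TOE3* was above the medians of 3.65 and 15.6, and *SMZ* was above that of −log10(P) only. The single peak of SVP:GFP in *flc-3*, at *SMZ*, had a −log10(P) below the list median of 19.1.

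**Figure D3:**
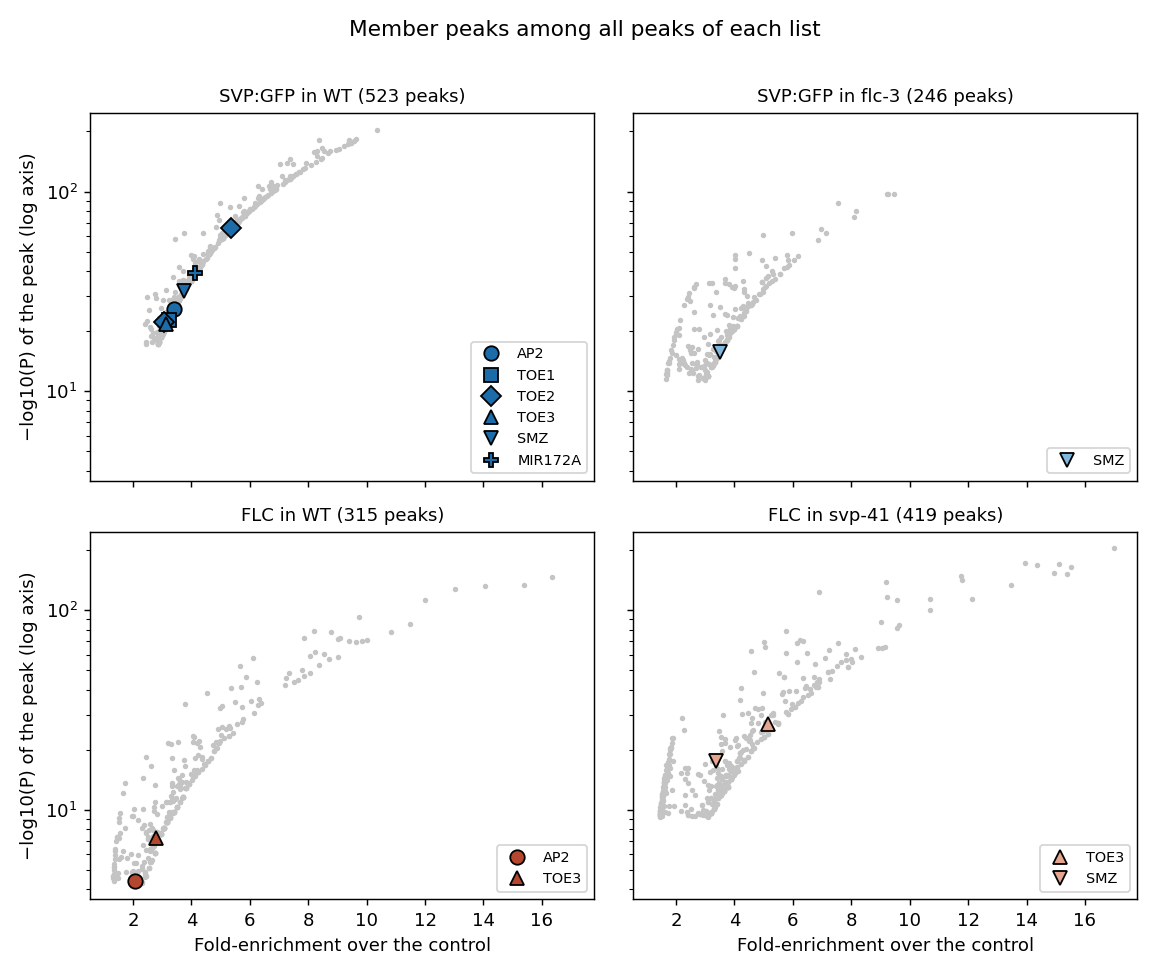
Fold-enrichment over the control and −log10(P) (log axis) of every peak in the 4 lists (grey points), with the member peaks as larger symbols by gene. The 7 symbols for SVP:GFP in WT lie between 3.06 and 5.37 on the fold axis, in the lower and middle part of the cloud, and those for FLC in WT lie at 2.09 (*AP2*), at the lower end of the −log10(P) axis, and at 2.79 (*TOE3*), below the list median of 3.28.

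Of the 7 peaks of SVP:GFP in WT, 2 (*AP2* and *TOE3*) overlapped a peak of FLC in WT and 2 (*TOE3* and *SMZ*) one of FLC in *svp-41*, by at least 1 bp. Over the whole list the shares were 27.3% and 21.8%, so 2 of 7 was near the background in both cases. In all, 7 pairs of member peaks overlapped between lists, 1 at *AP2*, 3 at *TOE3* and 3 at *SMZ*. Of these, 4 remained when each peak had to be covered by at least 50%, and in 6 of 7 pairs the summits were within 100 bp. Summits that close are usual: the median distance over all overlapping pairs was 11.5 to 30 bp, depending on the lists. The share of all pairs covered by at least 50% was not computed.

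An exact CArG-box was present in 6 of the 12 peaks, at *AP2*, *TOE1* and *SMZ*. It was found in 3 of the 7 peaks of SVP:GFP in WT, where 7.65% of all peaks held one, in 1 of 1 for SVP:GFP in *flc-3* (8.94%), in 1 of 2 for FLC in WT (9.21%) and in 1 of 2 for FLC in *svp-41* (10.3%). Of genome windows of 300 bp, 1.85% held one, but whole peaks were searched and longer windows hold a box more often. For windows as long as the SVP:GFP peaks in WT at *AP2*, *TOE1* and *SMZ*, the shares were 4.64%, 5.55% and 2.94%. With 1 mismatch allowed, 11 of the 12 peaks had an element, all but the proximal *TOE2* peak. At *AP2*, *TOE3* and *SMZ* the same elements were counted in more than 1 list. For SVP:GFP in WT, 6 of 7 member peaks had an element, where 71.5% of all peaks did. For SVP:GFP in *flc-3* it was 1 of 1 (48% of all peaks). Each FLC list had 2 of 2, where 57.8% (WT) and 54.2% (*svp-41*) of all peaks held such elements. These are matches of letters and do not show which base was bound. The boxes at *AP2* and *SMZ*, shown above in their 300 bp, and that at *TOE1* differed in their A/T core. No copy of the 200 bp around any of the 12 summits was found elsewhere in the genome at 95% identity over 150 bp.

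Other peaks lay within 10 kb of these genes without being assigned to them. Upstream of *AP2*, a peak present in all 4 lists was assigned to *LEJ2* (AT4G36910) alone, and it was much stronger than the *AP2* peak. Its rank was 61 of 523 for SVP:GFP in WT with a fold-enrichment of 6.77, 23 of 246 for SVP:GFP in *flc-3* with 5.79, 25 of 315 for FLC in WT with 5.68, and 34 of 419 for FLC in *svp-41* with 5.77. The summits were 4756 to 4794 bp upstream of *AP2*, beyond the 3 kb allowed. In the mutants, where *AP2* had no peak of its own, this was the nearest one. Each of the 4 peaks held the exact CArG-box shown, at 106 to 144 bp from the summit. An element with 1 mismatch lay nearer, covering the summit of FLC in WT and 2 to 34 bp from the other summits. Such elements are common, as given for *TOE3*.
*AP2* upstream, chr4:17395691-17395720, plus strand: atatatagtaCCAAAAAAGGttaaaaagta

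Past the 3′ end of *AP2*, peaks assigned to no gene were present for SVP:GFP in WT (rank 307 of 523), FLC in WT (rank 98 of 315) and FLC in *svp-41* (rank 231 of 419), with summits 5881, 5856 and 5482 bp from the gene end. The summit in *svp-41* was 399 and 374 bp from the SVP:GFP and FLC summits in WT, and only the WT peaks held an exact CArG-box. The nearest gene was *SPT* (AT4G36930) for the WT peaks, at 4733 and 4758 bp, and AT4G36925 for that in *svp-41*, at 4501 bp. Upstream of *TOE3*, a peak assigned to no gene was present for SVP:GFP in WT (rank 212 of 523), SVP:GFP in *flc-3* (rank 89 of 246) and FLC in WT (rank 46 of 315), with summits 3735, 3724 and 3672 bp from the gene start. The lists at this upstream site were thus not the same as at the assigned *TOE3* peak, since the site had SVP:GFP in *flc-3* and lacked FLC in *svp-41*. The closest gene to it was *DEAR2* (AT5G67190), whose 3′ end was 870 to 933 bp away.

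Upstream of *TOE1*, a peak of SVP:GFP in WT assigned to no gene had a fold-enrichment of 5.13, a −log10(P) of 62.3 and rank 125 of 523, stronger than the *TOE1* peak itself. Its summit was 4303 bp upstream of *TOE1*. The nearest gene was *RAD51B* (AT2G28560), whose 3′ end was 2948 bp away. In this peak, 2 exact CArG-boxes lay 40 and 56 bp from the summit. They are shown within the 300 bp around the summit because they stand side by side, and the first has the same 10 bases as the box at *AP2*.
*TOE1* upstream, chr2:12232778-12233077, minus strand: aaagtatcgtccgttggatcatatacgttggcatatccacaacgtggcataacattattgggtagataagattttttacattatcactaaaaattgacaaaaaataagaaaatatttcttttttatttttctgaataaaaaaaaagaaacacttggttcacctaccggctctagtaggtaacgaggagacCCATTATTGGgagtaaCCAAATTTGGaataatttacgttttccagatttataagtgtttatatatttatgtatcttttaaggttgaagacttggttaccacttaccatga

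Upstream of *MIR172A*, a peak of SVP:GFP in WT assigned to no gene had its summit 4494 bp away, a fold-enrichment of 3.42 and rank 336 of 523. It held 2 G-boxes and no exact CArG-box, and the nearest gene was AT2G28060, whose 3′ end was 2362 bp away. Farther upstream, peaks of SVP:GFP in WT (rank 477 of 523) and FLC in WT (rank 172 of 315) lay at the start of AT2G28060, 9207 and 9229 bp from *MIR172A*. When genes were assigned again with the RefSeq annotation, the 6 genes had 11 peaks with a window of 3 kb upstream, which leaves out the *MIR172A* peak, and 20 with 5 kb upstream. SVP:GFP in *flc-3* then held 1 and 3 of the genes.

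In the rest of the age pathway, peaks were found at miR156 genes and at 1 SPL gene, and not at the other miR172 genes. Of 24 further genes (*SNZ*, the 4 other miR172 genes, 8 miR156 genes and 11 SPL genes that miR156 targets), 5 were assigned to a peak in any list: 2 for SVP:GFP in WT, 2 for SVP:GFP in *flc-3*, 5 for FLC in WT and 2 for FLC in *svp-41*. The shares of all annotated genes in these lists are those given above (2.00%, 0.786%, 0.884% and 1.01%), and the 24 genes were not tested against them. Of the miR156 genes, *MIR156F* was in all 4 lists, at ranks 229 of 523, 180 of 246, 176 of 315 and 155 of 419 in the order above. *MIR156E* was in 3 lists, those other than SVP:GFP in WT, with fold-enrichments of 3.99, 3.18 and 4.16. *MIR156D* was bound in WT by SVP:GFP (5.16) and by FLC (4.13), and *MIR156B* by FLC in WT (3.92). Every one of these peaks was also assigned to a neighbouring gene, AT5G26146 at *MIR156F*, AT5G11970 at *MIR156E*, AT5G10946 at *MIR156D*, and AT4G30970 and AT4G30975 at *MIR156B*, so the lists do not tell these genes apart. *SPL15*, which promotes flowering, was the only SPL gene assigned to a peak, for FLC in WT, with a fold-enrichment of 4.67, rank 83 of 315 and a summit 76 bp inside the gene.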

How the data were processed

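ChIP-seq of SVP:GFP and FLC was analysed from the 4 deposited peak lists. According to the methods, the authors filtered reads with Parallel-QC, mapped them to TAIR10 with Bowtie2 2.0.2, called peaks with MACS at P ≤ 1e-3 without duplicate reads, kept peaks with an IDR of at most 0.05 across replicates that NarrowPeaks also found, and assigned genes from 3 kb upstream to 1 kb downstream with CSAR. The best alignment is kept by default, so reads of copied sequence may be placed in only one copy. Each row of the deposited lists gives a summit offset in bp, a fold-enrichment (a ratio over the control) and a −log10 P-value. Whether and how the replicates were combined in these values is not given in the sources used here, and neither is depth. The 6 genes and the gene lists were chosen with earlier results of these data known. All genes were named, with or without a peak, as were co-assigned genes, the nearest peak within 10 kb where a gene had none, and pathway genes with a peak. The other unassigned peaks were picked out after their values were seen.

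Peaks were parsed in Python 3.11.15, and overlaps, ranks, windows and motif searches were tested on simulated data. Positions are those of the deposited lists (TAIR10). Annotation and sequence came from TAIR10.1 with RefSeq genes, in which 815 of 816 pairs of peak and gene of SVP:GFP in WT fell in the stated window, as did 328 of 329, 347 of 348 and 411 of 413 in the other lists. Copies were searched with blastn 2.17.0. Motifs were searched in the whole peak on both strands. Genome shares are over adjoining windows of the same length, or of 300 bp where stated. No test was made, since no list holds replicates.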

Additional observations from a re-analysis of the deposited data

How the results depend on the processing

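The lists hold 1 set of peaks per group, so that strength, list length and gene window set the counts. At a −log10(P) of at least 20, SVP:GFP in *flc-3* and FLC in WT held 0 of the 6 genes and FLC in *svp-41* 1. At 17.2, the highest of the list minima, SVP:GFP in *flc-3* and FLC in WT held 0. With 246 peaks in every list, SVP:GFP in WT held 2 and FLC in WT 1, and 6 member peaks were left. With summits from 1 kb upstream to the gene end, SVP:GFP in WT held 2 and the other lists 0 each, so that 2 genes and 2 peaks were left in all. Assigned again with the RefSeq annotation, the peaks numbered 11 with 3 kb upstream, without that of *MIR172A*, and 20 with 5 kb upstream, where SVP:GFP in *flc-3* held 3 genes in place of 1. A reciprocal overlap of 50% left 4 shared pairs. With an A/T stretch of 5 to 7 bases 10 peaks held a CArG-box, and with 1 mismatch 11 did. The other 30 of 49 alternative counts were within 1.5 times the reported one, including those with 3 kb on both sides of the gene, a window chosen after seeing the data, which held the 12 peaks. All 12 ranks by fold-enrichment were within 1.5 times the rank by P-value, and all 7 distances between midpoints were within 100 bp of those between summits. No paired analysis was possible because the lists give no values for single replicates. Depth is unknown, so a peak absent from a list was not detected there, which does not show that the site was unbound.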
